A study of Anoectochilus roxburghii with 9 samples.

Results

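Of 85512 assembled genes in leaves of Anoectochilus roxburghii, a medicinal orchid, 79 were at least 2-fold higher with ArPHR4 overexpression than with the empty vector, while their mean with ArPHR2 overexpression lay between 20% below and 25% above the empty vector. They were chosen from the mean CPM (a count scaled to the library's total count) of the 3 libraries of each group. A member had an empty vector mean of at least 1 and under 1000 CPM, an ArPHR4 mean of at least 5 CPM, an ArPHR2 to empty vector ratio in that range, and ratios of ArPHR4 to the empty vector and of ArPHR4 to ArPHR2 of at least 2. These values chose the members, so the levels in the 3 groups are given as a description and carry no p-value.

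RNA was taken from leaves labelled as wild type in genotype. All 9 leaf samples had undergone transient overexpression and were collected at day 3. The empty vector group (EV, titled CK in the labels), the ArPHR2 group and the ArPHR4 group had 3 libraries each. A deposited list of names carries PHB-YFP, ArPHR2-YFP and ArPHR4-YFP, 3 names of each. No label ties that list to the libraries. The age of the plants, the promoter of the constructs and whether the libraries came from separate plants are not stated in the labels, so the spread between libraries may be technical. The empty vector libraries share the transient treatment, so no untreated leaf stands behind these comparisons.

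PHR factors belong to the MYB family of plant transcription factors. In Arabidopsis and rice they switch on the phosphate starvation response, binding promoters of genes for phosphate transporters, phosphate scavenging and lipid remodelling, while SPX-domain proteins hold them back when phosphate is ample. Plant genomes usually carry several PHR genes whose functions overlap in part. The design placed ArPHR2 and ArPHR4 side by side in the same tissue, so the genes described here are those whose level differed from the empty vector with the one factor and lay near it with the other.

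The files pair none of the assembly IDs with a gene name, a function or a sequence. Only 2 members are therefore given by ID, and the others by their rank. Neither the transcripts of ArPHR2 and ArPHR4 nor markers of leaf cell types were looked up, so the level of each construct and the tissue label were not checked. In whole leaves, more cells of a type and more RNA per cell cannot be told apart.

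Library totals ran from 16032716 to 17244083 counts. Within a group, the median squared difference between libraries was 2.06 to 3.46 times that of counting noise, so no library looked like a copy of another. The edgeR quasi-likelihood test over 27275 genes called 44.3% of them in ArPHR2 against EV, 52.0% in ArPHR4 against EV and 32.5% in ArPHR4 against ArPHR2, at an adjusted p under 0.05.

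The members were a small share of the genes that were higher with ArPHR4. At the limits on level alone, 14037 genes remained, and 1382 of them were at least 2-fold higher in ArPHR4 than in EV. Among those 1382, ArPHR2 was more than 25% above EV in 1250, more than 20% below EV in 18 and within the limits in 114. Of the 114, 35 had an ArPHR4 to ArPHR2 ratio under 2, which left the 79 members, 5.72% of the 1382. With ArPHR2 and ArPHR4 exchanged in the rule, 30 genes qualified, 3.64% of the 825 genes that were at least 2-fold higher in ArPHR2. Those 30 had a median ArPHR2 to EV ratio of 2.68 and reached at most 5.40.

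**Figure D1:**
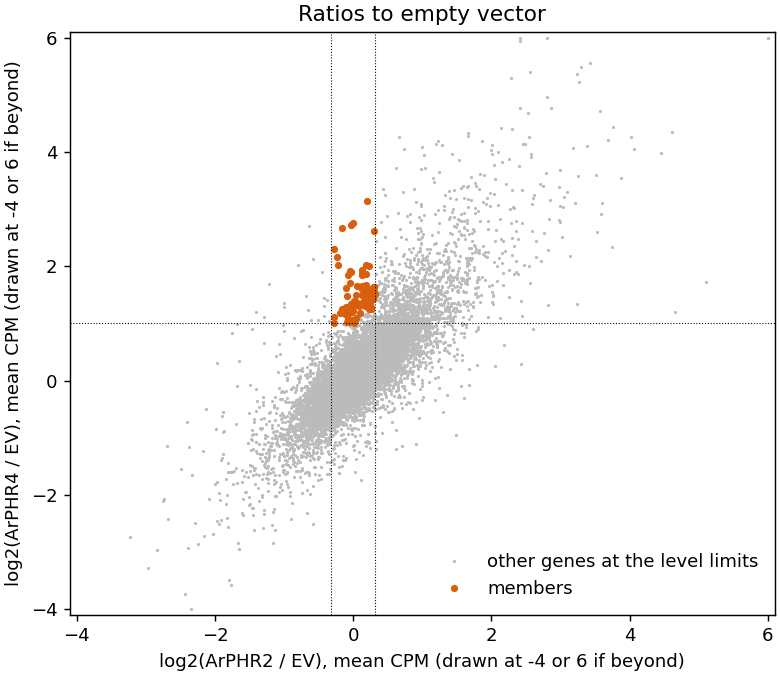
Log2 ratio of mean CPM to EV for ArPHR2 (x axis) and ArPHR4 (y axis), 1 point per gene, for the 14037 genes at the level limits; the 79 members are the orange points and dotted lines mark the limits (20% below and 25% above EV for ArPHR2, 2-fold for ArPHR4). The members lie over the horizontal line and between the vertical lines, at the edge of the main cloud of genes, and the highest stands at an ArPHR4 to EV ratio of 8.80.

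The members closest to the limits lay very near their neighbours outside. The lowest ArPHR4 to EV ratio among members was 2.01, and the closest gene that met every other limit had 1.99. The lowest ArPHR4 to ArPHR2 ratio inside was 2.00, against 1.997 outside. The highest ArPHR2 to EV ratio inside was 1.24 and the nearest one outside was 1.26, while on the lower side the values were 0.826 inside and 0.788 outside. The lowest ArPHR4 mean inside was 5.10 CPM, against 4.90 outside.

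Taken as a group, the members made up 0.258%, 0.256% and 0.253% of the counts in EV libraries 1 to 3. In the ArPHR2 libraries they made up 0.256%, 0.251% and 0.264%, and in the ArPHR4 libraries 0.747%, 0.760% and 0.768%. The ArPHR2 libraries thus lay across the range of the EV libraries, and every ArPHR4 library lay above both. Their summed level was 2558 ± 24 CPM in EV, 2569 ± 66.1 CPM in ArPHR2 and 7583 ± 103 CPM in ArPHR4 (SD, n = 3), a ratio to EV of 1.00 for ArPHR2 and 2.96 for ArPHR4. The 5 members with the most counts took 44.2% of the ArPHR4 sum and the first of them 12.6%.

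The rule cut the ArPHR4 ratios off at 2, so many members lay just above that limit. Their spread is therefore not read as a trait of the members. The ArPHR4 to EV ratio had a median of 2.75 and quartiles of 2.38 and 3.14. It was under 2.5 in 29 members, from 2.5 to 3 in 21, from 3 to 4 in 19 and 4 or more in 10. The ArPHR4 to ArPHR2 ratio had a median of 2.51 and ran from 2.00 to 7.66. All 79 members passed edgeR's filter on low counts. The edgeR fit called all 79 higher in ArPHR4 than in EV, where 26.1% of all tested genes were called higher, and 78 higher in ArPHR4 than in ArPHR2, against 16.3% of all tested genes. The rule used both contrasts, so nothing is read from these counts. On edgeR's scale, which rescales each library by TMM, the median log2 fold change against EV was 1.36 over the members and 0.01 over all tested genes.

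**Figure D2:**
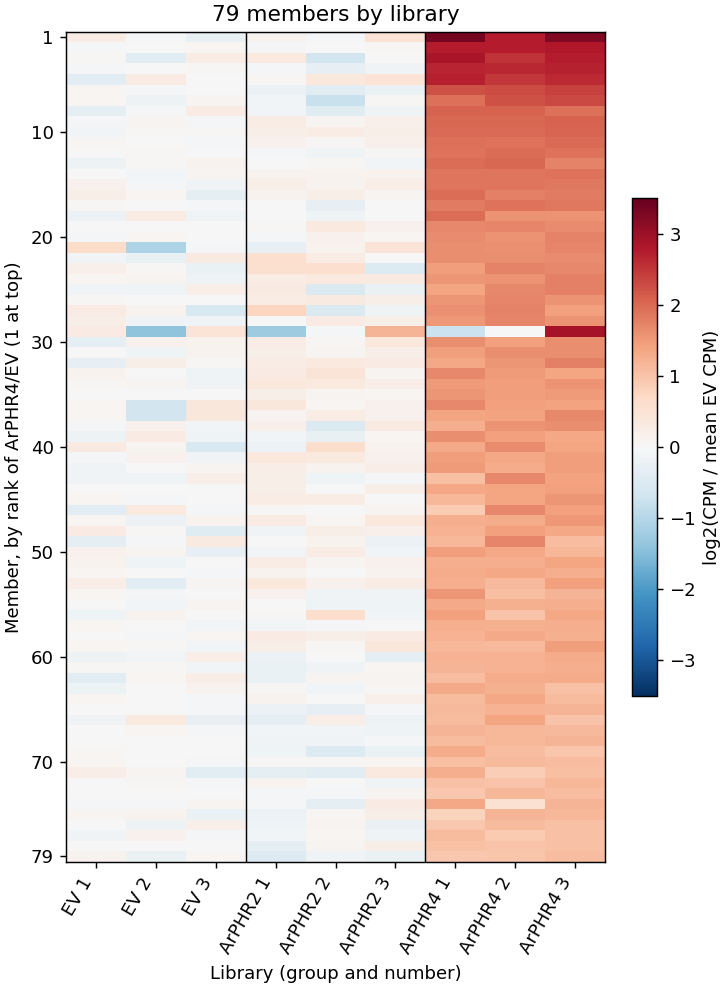
Log2 of the CPM of each library (columns, 3 per group) over the mean EV CPM for the 79 members (rows, ordered by the ArPHR4 to EV ratio, highest at the top). EV and ArPHR2 columns are mostly near 0, and ArPHR4 columns are red throughout except in the row ranked 29. In that row ArPHR4 library 3 is the only high one of its group, and ArPHR2 library 3 is also above 0.

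The member with the highest ratio was TRINITY_DN8023_c0_g1. Its level was 1.39, 1.15 and 0.970 CPM in the EV libraries, 1.28, 1.13 and 1.63 CPM in the ArPHR2 libraries and 11.9, 7.94 and 11 CPM in the ArPHR4 libraries. EV and ArPHR2 overlapped, and the lowest ArPHR4 library was far above both. The mean was 8.80-fold above EV, with a log2 fold change of 3.03 ± 0.24 (SE, edgeR). The gene was a rare transcript in EV, with 16 to 23 counts per library, and had 133 to 198 counts per ArPHR4 library. By FPKM (fragments per kilobase of transcript and library size, which corrects for length), it ranked 21355 among all genes in EV, 21413 in ArPHR2 and 6401 in ArPHR4. At these counts its ArPHR2 to EV ratio had a 95% interval of 0.723 to 1.66, which is wider than the limits of the rule.

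The member ranked 2 combined a large ratio with a high level. It was at 81.7, 82.2 and 86.9 CPM in EV, 79.7, 84.2 and 86.7 CPM in ArPHR2, and 564.6, 558.8 and 585.1 CPM in ArPHR4. The ArPHR2 libraries fell across the EV range and the ArPHR4 libraries were 6.81-fold above the EV mean (log2 fold change 2.67 ± 0.04, SE, edgeR). Its ArPHR2 to EV ratio was 0.999, with an edgeR 95% interval, on TMM-scaled counts, of 0.893 to 1.02. By length-corrected level it was the third of the members in ArPHR4, at 559.2 ± 21.7 FPKM against 69.2 ± 2.56 in EV and 74.8 ± 5.21 in ArPHR2 (SD, n = 3).

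The members ranked 4 and 6 also stood well above the rest at a moderate level in EV, and both lay slightly lower in ArPHR2 than in EV. The member ranked 4 had 50.7 to 53.5 CPM in EV, 43.0 to 50.1 CPM in ArPHR2 and 327.1 to 340.6 CPM in ArPHR4, 6.37-fold above EV. The member ranked 6 had 44.4 to 47.8 CPM in EV, 35.0 to 39.4 CPM in ArPHR2 and 215.6 to 240.9 CPM in ArPHR4, 4.94-fold above EV. In both, the ArPHR2 libraries were below each EV library, and the ArPHR4 libraries stood several-fold above all others.

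Among the first 10 by ratio, the members ranked 3, 5, 7 and 8 were rare transcripts. Their EV means were 1.01 ± 0.214, 3.71 ± 0.842, 3.57 ± 0.375 and 4.56 ± 0.974 CPM. Their ArPHR4 means were 6.65 ± 0.794, 22.7 ± 1.95, 16.1 ± 2.22 and 18.5 ± 0.989 CPM (SD, n = 3 throughout). The members ranked 9 and 10 were more abundant, at 41.4 ± 2.22 and 78.3 ± 4.63 CPM in EV and 168.1 ± 4.47 and 313.1 ± 7.14 CPM in ArPHR4. Both had an ArPHR2 mean above EV, at 47.1 ± 2.59 and 91.7 ± 2.49 CPM, with no overlap between the ArPHR2 and EV libraries.

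**Figure D3:**
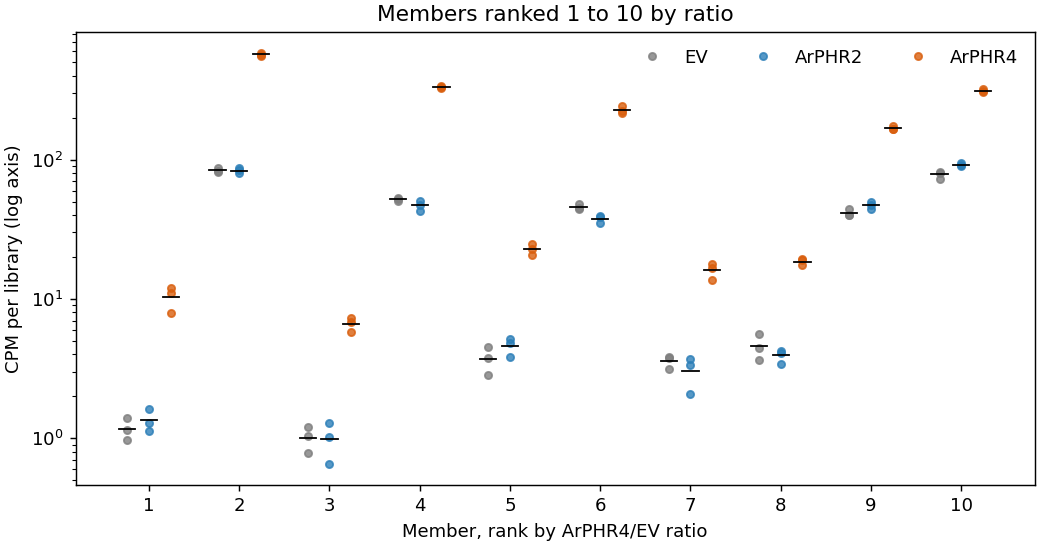
CPM of each library on a log axis for the members ranked 1 to 10 by the ArPHR4 to EV ratio; points are libraries and short lines are group means (n = 3). In each member the 3 ArPHR4 points lie above the EV and ArPHR2 points, and the EV means run from 1.01 CPM (rank 3) to 83.6 CPM (rank 2).

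By length-corrected level, TRINITY_DN22782_c0_g1 was the most abundant member in ArPHR4 leaves. It had 206.4, 214.8 and 206.9 FPKM in EV, 193.1, 186.2 and 212.5 FPKM in ArPHR2, and 777.8, 804.5 and 783.2 FPKM in ArPHR4. The ArPHR2 and EV libraries overlapped and the ArPHR4 libraries were all above them. The edgeR fit still called the gene slightly lower in ArPHR2 than in EV. Its ArPHR2 to EV ratio in CPM was 0.966, with a log2 fold change of -0.12 ± 0.04 (SE, edgeR). In CPM the ArPHR4 mean was 3.79-fold above EV, with a log2 fold change of 1.82 ± 0.04 (SE, edgeR). The gene moved from rank 715 of all genes by FPKM in EV and 760 in ArPHR2 to rank 118 in ArPHR4.

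The third member by ArPHR4 FPKM was the one ranked 2 by ratio, described above, with a ratio of 6.81. The second by FPKM was at 286.2 FPKM in EV, 248.1 in ArPHR2 and 645.2 ± 24.3 in ArPHR4, and the fourth was at 169.5, 160.9 and 421.1 ± 29.6 FPKM (group means; SD, n = 3). The count ratios of ArPHR4 to EV of the second and the fourth were 2.27 and 2.84. Over all members, mean levels ran from 0.667 to 286.2 FPKM in EV and from 2.22 to 788.5 FPKM in ArPHR4. The ArPHR4 level was under 5 FPKM in 12 members, from 5 to 20 in 20, from 20 to 100 in 31 and above that in 16. Among the 1000 genes with the highest FPKM of a group, 5 members were found in EV, 3 in ArPHR2 and 13 in ArPHR4.

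The ratio showed no steady order with the EV level. The rule's minimum of 5 CPM in ArPHR4 asked a higher ratio of the rarest genes, so nothing is read from this order. The 26 members at 1 to 5 CPM in EV had a median ArPHR4 to EV ratio of 2.89, the 25 at 5 to 20 CPM had 2.53, the 23 at 20 to 100 CPM had 2.84, and the 5 at 100 CPM or more had 2.27. The spread between EV libraries did depend on level. The median coefficient of variation in EV was 19.8% in the rarest of these classes, then 9.69%, 5.56% and 2.08%. Over all members it was 9.84% in EV, 9.50% in ArPHR2 and 7.28% in ArPHR4, against 5.58%, 6.20% and 5.94% over all genes at the level limits. These sets were not matched in level, so nothing is read from the difference.

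In 78 of the 79 members the ArPHR4 libraries were above every EV library, and 34.3% of all tested genes had that order. The same number were above every ArPHR2 library, an order found in 23.3% of all tested genes. The lowest ArPHR4 library was at least 2 times the highest EV library in 55 members and at least 1.5 times in 76. The rule used these values, so nothing is read from these counts. The exception, ranked 29, had 7.88, 2.42 and 8.91 CPM in EV, 2.73, 6.22 and 14.6 CPM in ArPHR2, and 3.80, 6.38 and 47.8 CPM in ArPHR4. Its mean ratio of 3.02 rested on ArPHR4 library 3. Without that library the ArPHR4 mean was 5.09 CPM and the ratio 0.795, so this gene belongs to the members only through that library. It was also the 1 member with no edgeR call between ArPHR4 and ArPHR2.

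The ArPHR4 libraries otherwise stood close together. Over the members, the median log2 ratio of library 3 to the mean of libraries 1 and 2 was 0.03, and the corresponding values for libraries 1 and 2 were -0.03 each. Library 3 was the higher in 50 of 79 members.

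The rule held the mean of each member near EV in ArPHR2 leaves, and how firmly this nearness was measured differed between members. The ArPHR2 to EV ratio had a median of 1.04, with 47 members above 1 and 32 below, and 41 members within 1.1-fold. This lean depended on the scaling, since with TMM the log2 fold change was above 0 in 39 members and below 0 in 40. The ArPHR2 and EV libraries overlapped in 61 members. They did not overlap in the other 18, with ArPHR2 above in 12 and below in 6. Of all tested genes, 30.3% had ArPHR2 above EV without overlap and 22.4% had it below, 52.7% in either direction.

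Some of the small differences in ArPHR2 leaves were called. The edgeR fit called 5 members higher and 9 lower in ArPHR2 than in EV, where 22.6% and 21.7% of all tested genes were called. The rule kept large differences out of this contrast, so nothing is read from the low count. The 5 had ratios of 1.17 to 1.24, and the 9 had ratios of 0.826 to 0.969 with log2 fold changes from -0.34 to -0.11. All 14 were at 10.6 CPM or more in EV. Leaving out 1 library at a time gave 9 to 14 calls. There were 9 without EV library 3, and 10 without EV library 1, EV library 2 or ArPHR2 library 1.

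A ratio inside the limits does not show that ArPHR2 left a gene at its EV level. The 95% interval of the ArPHR2 to EV ratio, from the edgeR standard error on TMM-scaled counts, lay wholly inside the limits of the rule in 25 members and crossed a limit in 54. None of the 26 members under 5 CPM in EV had such a narrow interval, against 25 of the other 53. In 10 members the upper end reached 1.5 or more. For ArPHR4 against EV, the lower end of the interval was at least 2 in 41 members, and the lowest was 1.33, in the member ranked 29.

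The rule was then applied to 6 libraries at a time, leaving out the 3 of one number, and the chosen genes were measured in the libraries the choice had not used. With 1 library per group on the measuring side this is a description with no test. Leaving out number 1, 2 or 3, the rule chose 92, 87 and 90 genes, of which 60, 65 and 64 were among the 79 members. In the left-out libraries the ArPHR4 value was above EV in 92 of 92, 87 of 87 and 89 of 90 genes. The median ArPHR4 to EV ratio there was 2.68, 2.88 and 2.79, no lower than the 2.67, 2.65 and 2.56 in the libraries that chose them. An ArPHR4 to EV ratio of at least 2 was met again by 79 of 92, 77 of 87 and 72 of 90 genes. Over all genes at the level limits, which were not chosen on this ratio, 10.3%, 10.5% and 10.1% met it. A higher share in the chosen genes was thus built into the comparison. The rule's other fold limit, an ArPHR4 to ArPHR2 ratio of at least 2, was met again by fewer genes, 63 of 92, 68 of 87 and 69 of 90. No share over all genes was taken for that limit.

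The nearness to EV in ArPHR2 held less often in the left-out libraries. The ratio of the single ArPHR2 library to the single EV library was within the limits in 60.9%, 52.9% and 62.2% of the chosen genes. Among all genes at the level limits that were within the limits in the choosing libraries, this share was 78.8%, 79.4% and 80.3%. For the chosen genes at 5 CPM or more in EV it was 67.7%, 66.7% and 75.9%. The share over all genes was not limited to that level, so the sets were not matched in level. Genes outside the limits were more often above than below, with 32, 30 and 24 over the upper limit and 4, 11 and 10 under the lower one. Over all chosen genes, inside or outside the limits, the median ArPHR2 to EV ratio in the left-out libraries was 1.12, 1.08 and 1.13. These are ratios of CPM without TMM scaling. In CPM, all tested genes also had ArPHR2 above EV without overlap more often than below (30.3% against 22.4%). The share of all genes over each limit was not taken, so nothing is read from this direction. All 3 ratio limits were met in the left-out libraries by 40, 38 and 40 genes.

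**Figure D4:**
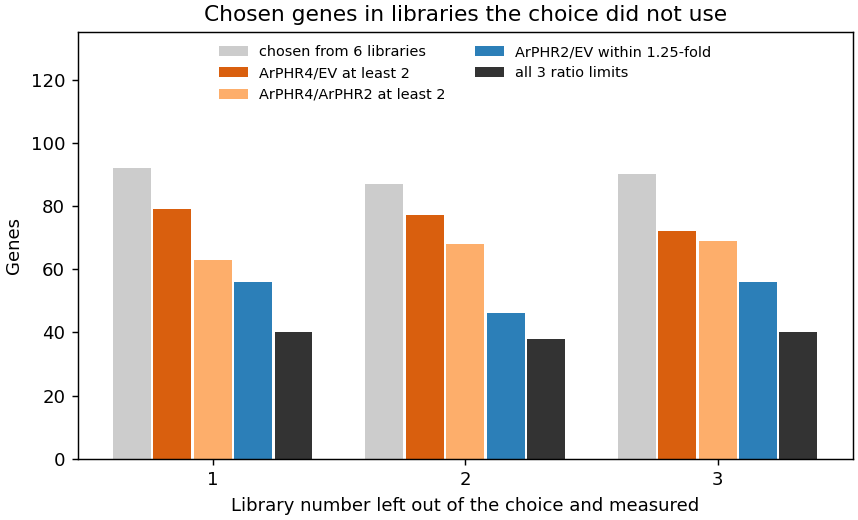
Number of genes (bars from 0) chosen by the rule from 6 libraries, and how many of them met each ratio limit in the 3 libraries left out, for each library number left out. The bars for ArPHR4/EV at least 2 (79, 77 and 72 genes) are closest to the number chosen. Those for ArPHR4/ArPHR2 at least 2 are lower (63, 68 and 69), and those for ArPHR2/EV within the limits are lower still (56, 46 and 56).

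The deposited FPKM values gave the same order for most members, with exceptions. In FPKM, 65 of the 79 members still met all 3 ratio limits. Of the 14 others, some failed more than one limit: 6 had an ArPHR4 to EV ratio under 2, and 9 had an ArPHR2 to EV ratio outside the limits. The FPKM ratio had a median of 2.68 for ArPHR4 and 1.02 for ArPHR2 against EV, and ran from 1.36 to 8.46 and from 0.713 to 2.10.

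The rule did not use the implied length of a gene, which is its count over its FPKM in a library. It moves when the reads of a gene are credited to longer or shorter transcripts. Of the 79 members, 75 had the 20 counts and 0.5 FPKM in every library that this measure required. Their implied length had a median of 1143 bases and quartiles of 698.3 and 1596, and 13 (17.3%) were under 500 bases. Over all genes at the level limits with the measure, the median was 1215 bases and 11% were under 500. These lengths take the library total as the FPKM denominator and are approximate.

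Few members changed in implied length. A shift of at least 0.32 on the log2 scale at an adjusted p under 0.05 (limma, over 16788 genes) was called in 3 of the 75 members for ArPHR4 against EV (4.00%, against 4.29% of all genes) and in 2 for ArPHR2 against EV (2.67%, against 3.16%). For ArPHR4 against ArPHR2, limma called 0 members, where 0.238% of all genes were called, and 2 members passed the fold limit with an unadjusted p under 0.05. These shares are near the background. Over the 9 fits without 1 library, the number for ArPHR2 went from 1 (without EV library 3, ArPHR2 library 1 or ArPHR2 library 3) to 3 (without ArPHR2 library 2).

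For the 3 members with a called shift, the count ratio and the FPKM ratio gave different sizes. The member ranked 70 had an implied length of 792.4 bases in EV, 1147 in ArPHR2 and 1220 in ArPHR4 (log2 shift in ArPHR4 0.61 ± 0.04, SE, limma adjusted p = 1.97e-04; in ArPHR2 0.50 ± 0.04, adjusted p = 7.57e-04). Its FPKM values were 290.4, 280.4 and 272.1 in EV, 203.2, 204.7 and 193.0 in ArPHR2 and 389.6, 415.1 and 368.2 in ArPHR4. On this scale ArPHR2 was below EV without overlap, at 0.713 of it, and ArPHR4 was 1.39-fold above EV, where the counts gave 2.14. In the member ranked 55 the implied length went the other way, from 2261 bases in EV to 1675 in ArPHR2 and 1203 in ArPHR4 (log2 shift in ArPHR4 -0.93 ± 0.10, SE, limma adjusted p = 0.00135), and the FPKM ratio of ArPHR4 to EV was 4.65 where the counts gave 2.44. The member ranked 67 became shorter by 0.33 on the log2 scale in ArPHR4 (from 1355 to 1087 bases; limma adjusted p = 0.00339).

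IDs that share an assembly component with a member, here called its relatives, were not chosen by the rule and could be tested. They can share reads with the member, and which transcripts they stand for is not known. No component held more than 1 member. Of the 79 members, 33 (41.8%) had at least 1 relative, against 34.6% of all genes at the level limits with another ID in their component. The relatives numbered 48, of which 30, in the components of 22 members, passed edgeR's filter.

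Relatives moved in both directions, and more often up than down in ArPHR4. In ArPHR4 against EV, 17 of the 30 rose, 5 fell and 8 were not called (edgeR, adjusted p under 0.05). The 17 lay in 13 components and the 5 in 5, so the IDs are not all separate cases. All were reached through members higher in ArPHR4, and how far shared reads add to the rises was not tested. Thus 73.3% were called, where 52.0% of all tested genes were, 26.1% as higher and 25.9% as lower. In ArPHR2 against EV, 8 rose, 8 fell and 14 were not called. Thus 53.3% were called, against 44.3% of all tested genes, 22.6% as higher and 21.7% as lower. The median log2 fold change was 0.45 in ArPHR4 and 0.04 in ArPHR2. Of the 17 that rose in ArPHR4, 8 also rose in ArPHR2 and 8 were not called there. The other fell in ArPHR2, from 23.3 CPM in EV to 15.2 CPM. The comparisons share the EV libraries.

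The largest change of a relative was in the component of TRINITY_DN22782_c0_g1. That relative had 3, 8 and 10 counts in the EV libraries, 49, 41 and 39 in the ArPHR2 libraries and 1098, 1108 and 1080 in the ArPHR4 libraries. The 3 groups did not overlap. From a mean of 0.424 CPM in EV it rose to 2.54 CPM in ArPHR2 (log2 fold change 2.5 ± 0.26, SE, edgeR adjusted p = 1.70e-09) and to 66.6 CPM in ArPHR4 (7.17 ± 0.16, adjusted p = 6.50e-27), a ratio of mean CPM to EV of 6.0 and 157. This ID was far rarer in EV than the member beside it and rose with both factors.

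Other components showed further combinations. The most abundant relative, in the component of the member ranked 68, was at 569.9 CPM in EV, 575.7 in ArPHR2 and 1046 in ArPHR4 (log2 fold change in ArPHR4 0.78 ± 0.04, SE, edgeR adjusted p = 7.66e-18; in ArPHR2 -0.05 ± 0.04, adjusted p = 0.278). It thus had the same order as the members at a smaller ratio. The relative of the member ranked 15 rose with both factors, from 7.08 CPM to 20.1 in ArPHR2 and 47.4 in ArPHR4. By contrast, a relative of the member ranked 2 fell with both, from 5.01 CPM in EV to 2.14 in ArPHR2 and 1.18 in ArPHR4 (log2 fold change in ArPHR4 -2.18 ± 0.28, SE, edgeR adjusted p = 5.90e-08). In the component of the member ranked 23, a relative fell from 3.59 CPM to 1.38 in ArPHR2 and 0.792 in ArPHR4 (log2 fold change in ArPHR4 -2.27 ± 0.36, SE, edgeR adjusted p = 2.52e-06).

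**Figure D5:**
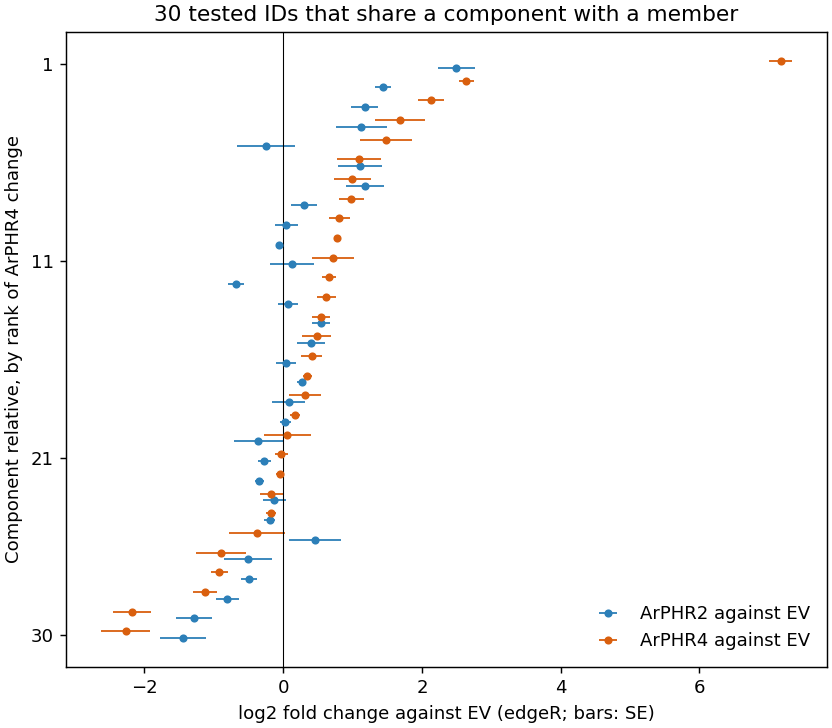
Log2 fold change against EV (x axis, edgeR; bars are SE) for the 30 tested relatives, ordered by their change in ArPHR4, with ArPHR2 in blue and ArPHR4 in orange. Most orange points lie right of 0, the relative at the top stands alone at 7.17, and 5 at the bottom that fell in ArPHR4 have ArPHR2 points left of 0 too.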

How the data were processed

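The members and lists were chosen with earlier results of these data known. The labels give the extraction and library kits; the assembler, read aligner, counting tool and strand setting are not stated in the labels or headers. The counts deposited by the authors are whole numbers per assembled gene, and the authors' FPKM columns hold values per kilobase and library size; both names are per the file headers. A correlation table and a list of names held no gene values and entered no calculation. No per-library column was left out (0).

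The count test was edgeR 4.0.16 under R 4.3.3 (filter by expression, TMM scaling, quasi-likelihood fit of 3 group means to 9 libraries, 6 residual degrees of freedom, Benjamini-Hochberg over all 27275 genes tested). The biological coefficient of variation was 7.76%. Implied length was tested with limma 3.58.1 on log2(count/FPKM), each library centred on gene-wise deviations. SE is the log2 fold change over the root of F. CPM uses column totals. DESeq2 1.42.0, other scalings and limma on log2(FPKM + 1) were alternatives. The steps were tested on simulated data. By the naming rule 2 IDs were printed, the highest ArPHR4/EV ratio and the highest ArPHR4 FPKM; ranks 1 to 10 on each order could be described, and other ranks (15, 23, 29, 55, 67, 68 and 70) were chosen after their values were seen. IDs of one component, overlapping and antisense transcripts can share reads. Depth was 16032716 to 17244083 counts per library, which limits the precision of rare genes.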

Additional observations from a re-analysis of the deposited data

How the results depend on the processing

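The number of members moved with the limits more than with the libraries. It was 41 with an ArPHR2/EV limit of 1.1 and 139 with 1.5, 311 with a fold limit of 1.5 and 20 with 3, and 239 (54 of them members) with FPKM in place of CPM. With TMM-scaled CPM 75 genes qualified, 63 of them members, and without 1 library 78 to 89. Members called in ArPHR2 against EV numbered 7 with limma on log2(FPKM + 1) or log2(FPKM + 0.1) and 4 with no filter, and relatives 10, 10 and 8; relatives called in ArPHR4 were 13 with no filter. That fit called 7758 genes in ArPHR2 against EV and 4757 in ArPHR4 against ArPHR2; the cause was not tested. Without 1 library, members called were 9 to 14 in ArPHR2 against EV, 78 to 79 in ArPHR4 against EV and 78 to 79 between the factors, and members with an implied length shift in ArPHR2 were 1 to 3. In every fit the named members were higher in ArPHR4 than in EV. With upper-quartile scaling the members' median log2 fold change in ArPHR4, a value followed only after seeing the data, was 1.30. Deviations of same-numbered libraries correlated weakly, by 0.005 to 0.05, and those of libraries with other numbers by -0.054 to 0.030. In both other groups, 5 of 9 libraries correlated best with their own number. Whether the numbers pair the samples was not tested. With the number as a replicate block, 15, 79 and 79 members were called in ArPHR2 against EV, ArPHR4 against EV and ArPHR4 against ArPHR2, and 12007, 14101 and 8779 genes.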
